A study of Mus musculus with 12 samples.

Results

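Hepatic stellate cells are the main source of scar-forming cells in the injured liver, and the 10 genes described here mark them at rest and after activation. Lrat and Des are linked to the quiescent cell, Pdgfra and Pdgfrb encode receptors of its mitogens, Tgfb1 encodes the fibrogenic cytokine that acts on it, and Acta2, Tagln, Postn, Lox and Timp1 are linked to the activated cell and its matrix. The genes were taken by symbol. All 10 were found among the 21751 genes and loci of the Miz1 table and all 10 among the 24054 genes of the Miz1(POZ) table.

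The study sequenced RNA of liver tumours from C57BL/6 mice in 12 libraries, which fall into 4 groups of 3. Mice homozygous for a floxed Miz1 allele without Cre were the controls for floxed mice with Alb-Cre, in which the albumin promoter drives Cre in hepatocytes (Miz1 knockout). Mice homozygous for a floxed allele of the Miz1 POZ domain, Miz1(POZ)fl/fl, were likewise compared without and with Alb-Cre (Miz1(POZ) knockout). All 4 groups had received diethylnitrosamine (25 mg/kg) at week 2 of life, then weekly carbon tetrachloride (0.5 ml/kg), a toxin widely used to induce liver fibrosis, and were killed at 5 months. By design the deletion is thus aimed at hepatocytes and not at stellate cells, which was not tested here. No group was free of the fibrogenic treatment. The labels do not say how many mice or tumours each library came from, so the p-values measure the spread between these samples.

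A resting stellate cell stores vitamin A as retinyl esters, which the enzyme encoded by Lrat makes. After injury it loses these stores, divides in response to platelet-derived growth factor, becomes contractile by way of smooth muscle actin and secretes collagen together with enzymes that cross-link it and inhibitors that protect it from proteases. In liver tumours, the descendants of these cells form much of the cancer-associated fibroblast population.

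The promoters of 3 members are shown because the gene of smooth muscle actin is known to carry elements for serum response factor, the regulator of contractile genes, and because Lrat and Postn stand for the resting and the matrix-forming cell. Each line gives the 250 bases before the gene's start in the RefSeq table (GRCm38.p6, the build of mm10), 5′ to 3′ on the strand of the gene, and capitals mark matches to the motifs searched. The windows are chr19:34255374-34255623 on the minus strand for Acta2, chr3:82903975-82904224 on the minus strand for Lrat and, for the second of 2 Postn starts, chr3:54360857-54361106 on the plus strand.
Acta2: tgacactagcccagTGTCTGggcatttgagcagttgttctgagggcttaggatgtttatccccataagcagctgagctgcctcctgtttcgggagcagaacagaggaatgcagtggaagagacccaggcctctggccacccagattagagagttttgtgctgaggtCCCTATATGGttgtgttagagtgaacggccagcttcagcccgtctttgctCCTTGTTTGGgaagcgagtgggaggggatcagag
Lrat: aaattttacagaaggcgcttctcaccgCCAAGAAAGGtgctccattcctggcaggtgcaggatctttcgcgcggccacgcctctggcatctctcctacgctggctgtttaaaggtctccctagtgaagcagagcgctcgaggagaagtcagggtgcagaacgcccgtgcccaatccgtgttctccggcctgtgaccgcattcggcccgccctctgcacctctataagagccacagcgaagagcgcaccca
Postn: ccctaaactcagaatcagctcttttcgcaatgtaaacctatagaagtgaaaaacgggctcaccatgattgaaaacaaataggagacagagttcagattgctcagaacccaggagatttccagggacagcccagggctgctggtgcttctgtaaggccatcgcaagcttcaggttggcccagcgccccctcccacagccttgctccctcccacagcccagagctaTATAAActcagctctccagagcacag

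Windows for 7 of the 10 members were searched on both strands for the CArG box (the serum response factor element) in its strict form, the same box with 1 G or C among its 6 inner letters, TATAAA, the AP-1 element TGANTCA and the SMAD elements GTCTAGAC and CAGACA. Tagln, Lox and Pdgfrb were not searched, and member windows on chromosome 18, where Lox and Pdgfrb lie, were left out. The Acta2 window holds the relaxed CArG box at 84 to 75 and at 34 to 25 bases before the start, and CAGACA on the opposite strand at 236 to 231. These positions hold for the RefSeq start only. The GENCODE gene given below begins inside this window, at 34255590, and both boxes lie within it. At least 1 relaxed CArG box is found in 7.24% of all 32851 windows of this length, 2 or more in 0.548%, and CAGACA in 17.1%. Lrat has a relaxed box at 223 to 214 bases before the start, and Postn has TATAAA at 26 to 21, a motif found in 12.4% of all windows. The strict CArG box, TGANTCA and GTCTAGAC, present in 1.47%, 6.75% and 0.167% of all windows, were in no member window, and the windows of Des, Pdgfra, Tgfb1 and Timp1 held none of the motifs. The relaxed box was added after the strict one gave no match. A match describes letters and not a bound site.

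Levels in Miz1 tumours are normalised read counts, that is, reads scaled by a single factor for each library, and 5 of the 6 libraries hold 30151743 to 76122969 reads in genes. Levels in Miz1(POZ) tumours are FPKM, which scale the reads by gene length and library size, with depth unknown. Zbtb17, which encodes Miz1, was at 323, 306 and 302 normalised read counts in floxed and 261, 271 and 267 in Miz1 knockout libraries. In the Miz1(POZ) set its FPKM were 2.03, 2.46 and 1.82 without Cre, and with Cre 2.55, 2.60 and 1.95. The labels do not give the deleted exons, so these values check the genotype only in part. In the Miz1 set, floxed and knockout replicate 1 stood apart from the other 4 libraries in the hepatocyte gene Cyp2e1 (6372 and 7059 against 57731 to 131465). The Miz1 values of the members are therefore also given without these libraries. Hepatocyte markers did not all behave alike. Cps1, Tat and Ass1 were likewise lowest in this pair, Alb and Apoa1 were highest there (Apoa1 559228 and 444411 against 228565 to 339461), and Ttr and Arg1 did neither.

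FPKM allows genes to be compared, since it is per length. Tgfb1 had the highest median level in Miz1(POZ) floxed tumours at 5.38 FPKM (range 5.13 to 6.42), followed by Postn at 4.66 (4.58 to 5.54) and Lrat at 4.52 (3.76 to 5.32). The ranges of these 3 neighbours overlapped. Pdgfrb followed at 3.42 (3.32 to 3.76, meeting the low end of Lrat), Tagln at 3.10 (2.89 to 3.14) and Pdgfra at 2.37 (1.66 to 2.44), with no overlap between these 3. Acta2 at 1.08 (0.99 to 1.56) and Des at 1.07 (0.99 to 1.15) could not be ordered, nor could Timp1 at 0.81 (0.10 to 0.89) and Lox at 0.26 (0.16 to 0.40). Timp1 and Lox had a mean under 1 FPKM over the 6 libraries and were left out of the Miz1(POZ) test, so 8 of the 10 members were tested there and 10 of 10 in the Miz1 set.

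The first comparison asked how these genes differed when Miz1 was deleted in hepatocytes. The value was on average higher in knockout tumours for 10 of 10 members, but 1 library carried most of it: knockout replicate 1 was the highest of the 6 libraries for 9 of the 10, and for 23.8% of all genes. With limma, 0 of 10 members passed an adjusted p of 0.05, as did 0% of all 21751 genes (0 members and 364 genes, or 1.67%, at an unadjusted p under 0.05). The median log2 fold change of the members was 0.37, against 0.012 for all genes, and without knockout replicate 1 it was 0.037, with 5 of 10 above 0. Without both libraries of replicate 1 it was 0.095, with 6 of 10 above 0. No member had groups that did not overlap, which 5.62% of all genes had (2.57% with the knockout higher, 3.05% lower). In such bulk RNA, more stellate cells and more RNA per cell cannot be told apart. All log2 fold changes are knockout minus floxed, on the scale of log2(value + 1), with the moderated SE of limma, and the limma adjusted p of each Miz1 member was 0.9998.

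**Figure D1:**
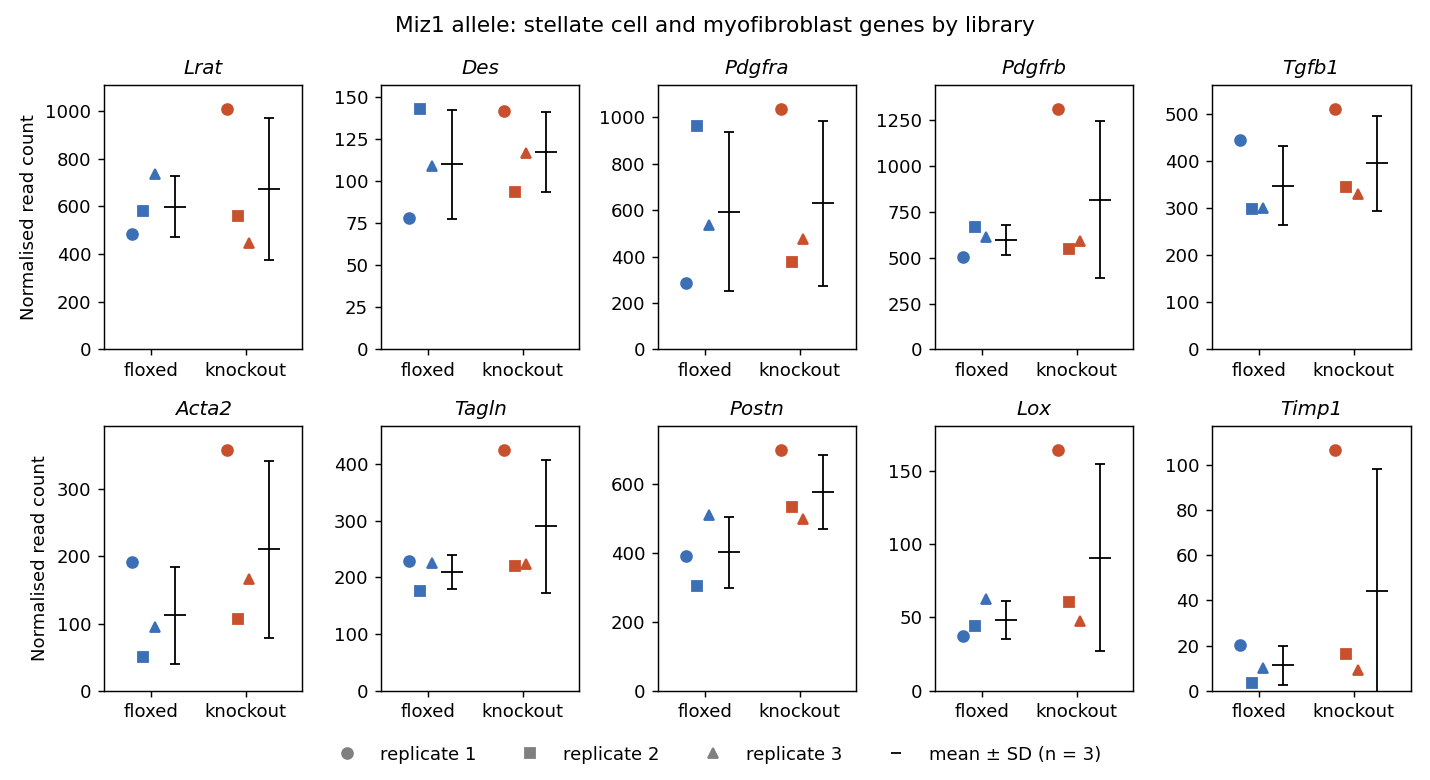
Normalised read counts of the 10 genes in the 3 floxed (blue) and 3 Miz1 knockout (orange) libraries, with marker shapes for replicate numbers and bars for mean ± SD (n = 3, lower ends cut at 0). Knockout replicate 1 (orange circle) is the highest library in every panel except Des.

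Of the quiescence genes, Lrat (chromosome 3, 82892579 to 82903973 in GENCODE M21 on GRCm38) was at 483, 580 and 735 normalised read counts in floxed replicates 1 to 3 and at 1009, 561 and 446 in knockout replicates 1 to 3. Knockout replicates 2 and 3 lay within or below the floxed range, and the log2 fold change was 0.10 ± 0.33. Des, which encodes the intermediate filament desmin (chromosome 1, 75360329 to 75368579), was at 78.0, 143 and 109 in floxed and 141, 93.8 and 117 in knockout libraries, so that all 3 knockout values fell inside the floxed range. Its log2 fold change was 0.11 ± 0.29. Without knockout replicate 1 both differences were below 0 (Lrat -0.24, Des -0.029).

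The receptor genes showed the same division between replicate 1 and the others. Pdgfra (chromosome 5, 75152292 to 75198215), receptor alpha for platelet-derived growth factor, was at 284, 962 and 534 in floxed and 1036, 378 and 475 in knockout libraries. It was lowest in floxed replicate 1 and highest in knockout replicate 1, the pair that also had little Cyp2e1. Pdgfrb (chromosome 18, 61045150 to 61085061), the beta receptor and a general marker of stellate cells and pericytes, was at 504, 666 and 614 in floxed and 1309, 549 and 589 in knockout libraries. Only knockout replicate 1 lay outside the floxed range. The log2 fold changes were 0.12 ± 0.54 for Pdgfra and 0.35 ± 0.35 for Pdgfrb, and without knockout replicate 1 they were -0.31 and -0.055. Without both libraries of replicate 1 they were -0.76 and -0.17, Lrat was at -0.38 and Des at -0.25.

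Tgfb1 (chromosome 7, 25687002 to 25705077), the ligand, varied least. It was at 445, 298 and 301 in floxed and 510, 345 and 329 in knockout libraries, with a log2 fold change of 0.18 ± 0.25. The knockout library was the higher one in each of the 3 same-numbered pairs, by at least 1.09 times, although the groups overlapped. Macrophages also make this cytokine, and the summed level of 8 macrophage markers was highest in the same 2 libraries, floxed replicate 1 (11211) and knockout replicate 1 (16427), against 4284 to 6568 in the other 4. The markers did not all follow this sum. In knockout replicate 1, 5 of the 8 were highest, with Cybb alone at 5685, but Marco was lowest there (43.1 against 55.2 to 198). The part of these markers in the Tgfb1 values was not tested. The difference was -0.020 without knockout replicate 1 and 0.17 without both libraries of that number.

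Among the activation genes, Acta2 was the one that was higher with Cre within every same-numbered pair. Acta2, which encodes alpha smooth muscle actin (chromosome 19, 34241090 to 34255590), was at 192, 49.8 and 94.9 normalised read counts in floxed and 358, 106 and 167 in knockout libraries. The knockout library was 1.87, 2.14 and 1.75 times the floxed one in pairs 1, 2 and 3, while the groups as such overlapped. Across the 3 pairs the knockout was higher for 2 of 10 members, Acta2 and Tgfb1, and for 13.3% of all genes. The log2 fold change of Acta2 was 0.93 ± 0.62, and 0.94 without both libraries of replicate 1. It was 0.45 without either knockout replicate 1 or floxed replicate 2, and 1.42 without floxed replicate 1. In the fit paired by number, a pairing that the titles do not state, the SE of Acta2 was 0.17 and its limma adjusted p 0.908. Acta2 rested on 46 to 347 reads per library where reads were recovered.

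Tagln, which encodes the actin-binding protein transgelin (chromosome 9, 45929619 to 45936058), was at 229, 175 and 225 in floxed and 424, 221 and 224 in knockout libraries. Knockout replicates 2 and 3 lay within the floxed range. Postn, for the matricellular protein periostin (chromosome 3, 54361109 to 54391037), was at 392, 305 and 510 in floxed and 700, 534 and 501 in knockout libraries. Its lowest knockout value lay just under the highest floxed one, and of the members it came nearest to the threshold before adjustment. The log2 fold changes were 0.40 ± 0.30 for Tagln and 0.54 ± 0.24 for Postn, and without knockout replicate 1 they were 0.093 and 0.39. Without both libraries of replicate 1 they were 0.16 and 0.39.

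Lox, the gene of lysyl oxidase, which cross-links collagen and elastin (chromosome 18, 52516067 to 52529867), was at 37.2, 44.4 and 62.6 in floxed and 164, 60.8 and 47.5 in knockout libraries. Timp1, an inhibitor of matrix metalloproteinases (chromosome X, 20870166 to 20874735), was at 20.4, 3.25 and 10.1 in floxed and 107, 16.5 and 9.12 in knockout libraries. Knockout replicate 1 had more than any other library for both. Timp1 was also the most variable member, with a highest value 32.8 times the lowest, and it rested on only 3 reads in floxed replicate 2 and 89 in knockout replicate 1. The log2 fold changes were 0.72 ± 0.50 for Lox and 1.41 ± 1.02 for Timp1, and 0.19 and 0.41 without knockout replicate 1. Without both libraries of replicate 1, Lox was at 0.028 and Timp1 at 0.95.

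Other cell types moved with knockout replicate 1 too. All 5 measured cholangiocyte markers were highest there, with Krt19 at 125 against 2.40 to 53.5, Epcam at 283 against 12.7 to 72.5 and Krt7 at 101 against 10.8 to 42.4. The summed cholangiocyte level was 844 to 1154 in floxed and 1017 to 1868 in knockout libraries. Portal fibroblast markers summed to 1542 to 2240 in floxed and 1686 to 3127 in knockout tumours, with 5 of 10 highest in knockout replicate 1. For smooth muscle and pericyte markers the sums were 4839 to 5184 and 4056 to 6817, with 5 of 9 highest in that library. Endothelial markers summed to 15540 to 19675 and 15433 to 16877. Hepatocyte markers had 2 of 8 above 0 (median log2 fold change -0.48), and their sums, mostly Alb, were 2.10e+06 to 5.37e+06 in floxed and 3.15e+06 to 3.37e+06 in knockout libraries. Mesothelial markers summed to 60.0 to 545 and 109 to 367, highest in floxed replicate 3, and the 1 skeletal muscle marker listed, Mylpf, was at 4.79 to 24.9 in all libraries. None of the listed markers was at 0 throughout, and their part in the members' values was not tested.

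**Figure D2:**
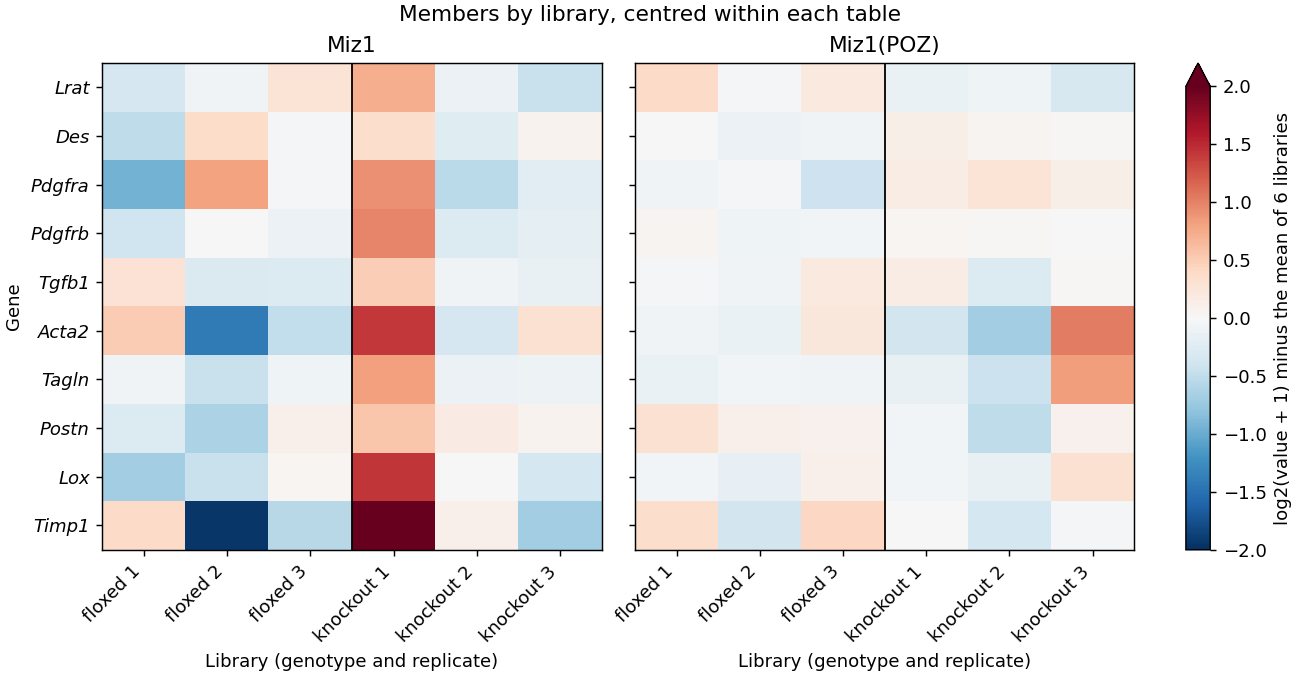
Deviation of log2(value + 1) from the mean of the 6 libraries for each gene (rows) and library (columns), in the Miz1 set on the left and the Miz1(POZ) set on the right; the black line parts floxed from knockout. In the Miz1 set knockout 1 is the darkest red column, whereas in the Miz1(POZ) set red in Acta2 and Tagln is seen in knockout 3, and the deviation of Timp1 in Miz1 knockout 1 passes the end of the scale.

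Genes that work with the members were counted from lists. In the Miz1 set 0 genes of these lists passed, with limma adjusted p of 0.9998 for each. Contractile and actin cytoskeleton genes had a log2 fold change above 0 for 13 of 15 (median 0.34), and 12 of the 15 were highest in knockout replicate 1. Among them, the myosin light chain gene Myl9 had 1.12 ± 0.67, calponin 1 (Cnn1) -0.41 ± 0.47 and the tropomyosin gene Tpm2 0.25 ± 0.29. Interstitial collagens and activated fibroblast genes were above 0 for 8 of 8 measured (median 0.34), with Col1a1 at 0.25 ± 0.49, Col1a2 at 0.37 ± 0.39 and Col3a1 at 0.68 ± 0.58. All 4 ligands of the PDGF receptors were highest in knockout replicate 1 (median 0.38; Pdgfa 0.18 ± 0.32, Pdgfb 0.69 ± 0.45, Pdgfc 0.27 ± 0.34). All genes together had a median of 0.012, with 52.1% above 0.

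Genes of the TGF-beta route had medians closer to that of all genes. Ligands, latency proteins, receptors and SMADs had 13 of 23 above 0 (median 0.069), with Tgfb2 at 0.66 ± 0.72, Tgfb3 at 0.19 ± 0.51 and the receptor gene Tgfbr1 at 0.07 ± 0.28. Even so, 15 of these 23 were highest in knockout replicate 1, against 23.8% of all genes. TGF-beta response genes had 5 of 8 above 0 (median 0.095), with Ctgf at 0.03 ± 0.37 and Tgfbi at 0.17 ± 0.49. Of these 8, 4 were highest in knockout replicate 1. The factors of the SRF, MRTF and YAP group had 3 of 7 above 0 (median -0.037; Srf 0.02 ± 0.16, Mkl1 -0.14 ± 0.18, Mkl2 -0.04 ± 0.20). Quiescence markers other than the members had 5 of 10 (median -0.011), with reelin (Reln) at -0.13 ± 0.46, the hepatocyte growth factor gene Hgf at -0.17 ± 0.41 and Colec11 at 0.36 ± 0.24. Lysyl oxidase relatives and collagen maturation genes had 13 of 17 above 0 (median 0.12; Loxl1 0.20 ± 0.57, Loxl2 0.06 ± 0.40, Loxl3 0.09 ± 0.35). Of these 17, 11 were highest in knockout replicate 1. Metalloproteinases and their inhibitors had 8 of 11 (median 0.22; Timp2 0.00 ± 0.44, Timp3 0.04 ± 0.23, Timp4 -0.27 ± 1.19), and 10 of the 11 were highest in knockout replicate 1. Matricellular genes had 5 of 7 (median 0.45, with Tnc 0.48 ± 0.29, Sparc 0.58 ± 0.61 and Thbs2 0.01 ± 0.69), and 5 of the 7 were highest in knockout replicate 1. That library was highest for 3 of the 10 quiescence markers and for 2 of the 7 SRF, MRTF and YAP factors.

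Deletion of the POZ domain in hepatocytes was the subject of the second comparison. Lrat was lower and Pdgfra and Des were higher in all 3 Miz1(POZ) knockout libraries than in all 3 floxed ones, although by limma 0 of 8 tested members passed, as did 0% of 11201 genes. Of the 8, 2 had groups that did not overlap with the knockout higher (8.68% of all genes) and 1 with the knockout lower (6.32%). At an unadjusted p under 0.05 there were 2 members, Lrat and Pdgfra, and 976 genes (8.71%). The median log2 fold change was 0.015 over the 8 members and 0.029 over all genes. With 3 libraries against 3, the smallest p of an exact two-sided permutation test is 0.1, which Lrat, Des and Pdgfra reached.

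**Figure D3:**
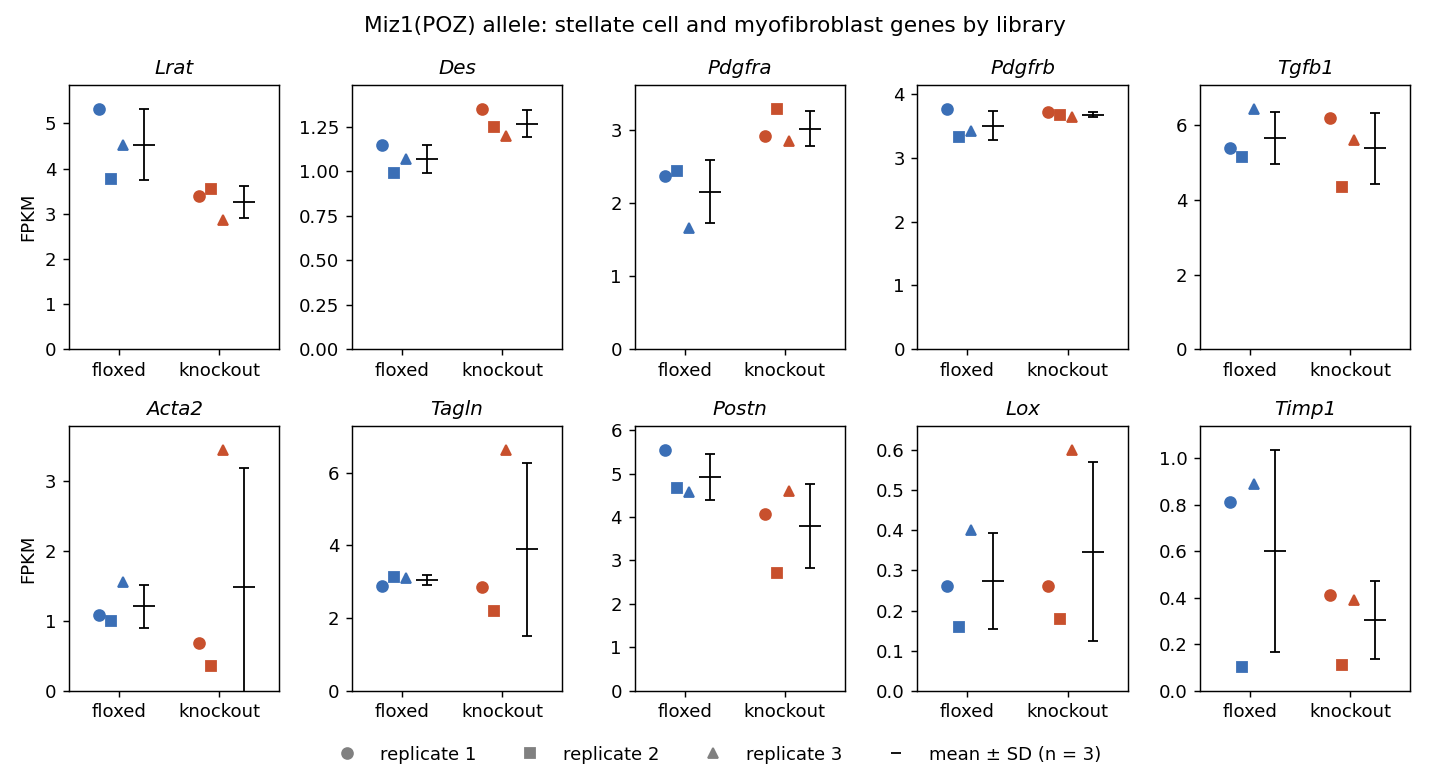
FPKM of the 10 genes in the 3 floxed (blue) and 3 Miz1(POZ) knockout (orange) libraries, drawn as in the plot of the Miz1 set. Lrat, Des and Pdgfra separate the groups, and knockout replicate 3 (orange triangle) is the highest library for Acta2, Tagln and Lox.

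The FPKM of Lrat were 5.32, 3.76 and 4.52 without Cre, and 3.39, 3.54 and 2.86 with it. The highest knockout value lay under the lowest floxed value by a small margin, and the log2 fold change was -0.37 ± 0.14 (limma adjusted p = 0.530). Leaving out 1 library moved it between -0.47 and -0.27. Des was at 1.15, 0.99 and 1.07 in floxed and 1.35, 1.25 and 1.20 in knockout libraries, a difference of 0.13 ± 0.12 near the low end of what was tested (limma adjusted p = 0.797).

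Pdgfra was at 2.37, 2.44 and 1.66 in floxed and 2.92, 3.29 and 2.85 in knockout libraries, and all knockout values lay above all floxed ones. Its log2 fold change was 0.36 ± 0.14 (limma adjusted p = 0.536), and 0.24 to 0.42 with 1 library left out. Pdgfrb was nearly level, at 3.76, 3.32 and 3.42 in floxed and 3.71, 3.67 and 3.63 in knockout libraries (log2 fold change 0.055 ± 0.10). Tgfb1 was at 5.38, 5.13 and 6.42 in floxed and 6.18, 4.34 and 5.58 in knockout libraries, with overlap on both sides (-0.067 ± 0.15).

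The activation genes were spread widely within the Miz1(POZ) knockout group. For Acta2 the floxed libraries gave 1.08, 0.99 and 1.56 FPKM, and the knockout libraries 0.68, 0.35 and 3.44. Knockout replicates 1 and 2 were thus below, and replicate 3 above, every floxed library, and the log2 fold change of -0.025 ± 0.43 averages these. Tagln had the same order, at 2.89, 3.14 and 3.10 in floxed and 2.86, 2.20 and 6.62 in knockout libraries (0.17 ± 0.30). Without knockout replicate 3 the differences were -0.54 for Acta2 and -0.20 for Tagln, and without knockout replicate 2 they were 0.31 and 0.42.

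Postn was at 5.54, 4.66 and 4.58 in floxed and 4.06, 2.71 and 4.59 in knockout libraries. Knockout replicate 3 was level with the lowest floxed library, the other 2 knockout libraries lay below all floxed ones, and the log2 fold change was -0.33 ± 0.17 (limma adjusted p = 0.663), or -0.15 without knockout replicate 2. Lox was at 0.26, 0.16 and 0.40 in floxed and 0.26, 0.18 and 0.60 in knockout libraries. Timp1 was at 0.81, 0.10 and 0.89 in floxed and 0.41, 0.11 and 0.39 in knockout libraries. In a fit without the filter on low values, Lox had a log2 fold change of 0.072 ± 0.13 and Timp1 of -0.26 ± 0.22.

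**Figure D4:**
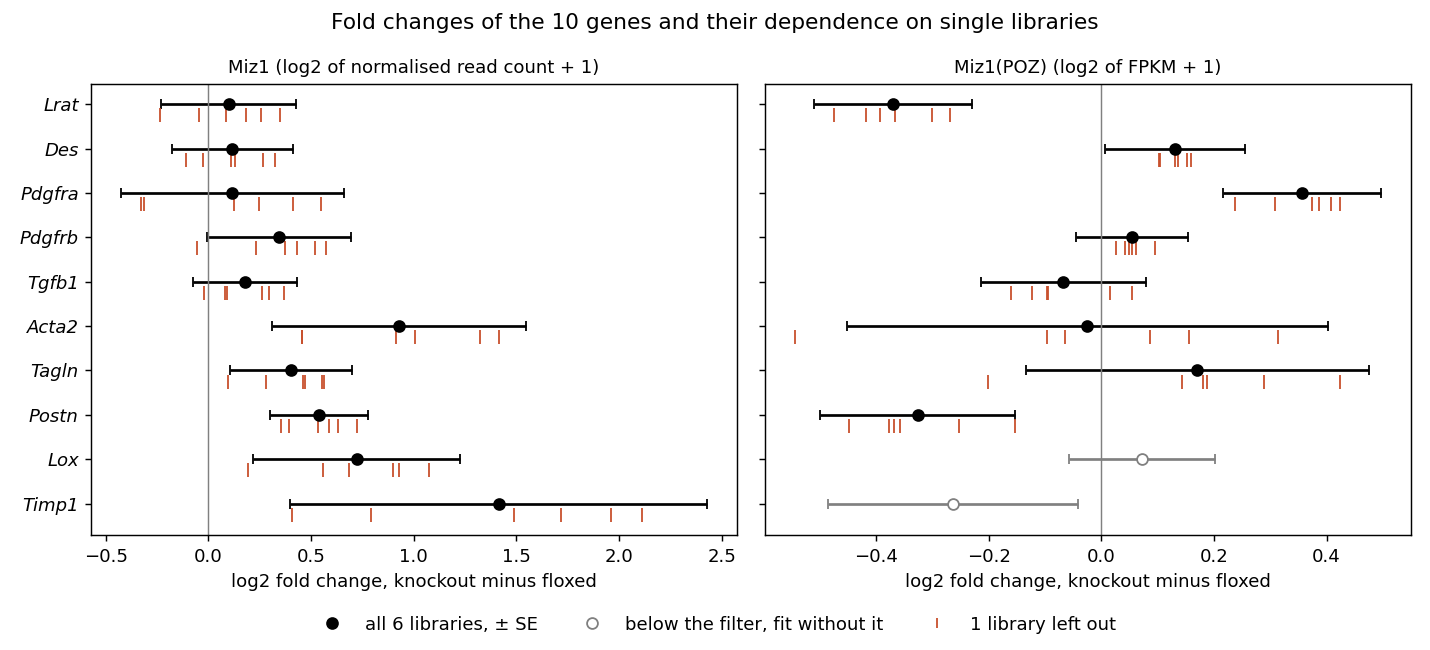
Log2 fold change, knockout minus floxed, of each gene in the Miz1 set (left) and the Miz1(POZ) set (right), each with its own horizontal scale; black points are the fit of all 6 libraries with its SE, open points genes under the filter, and orange ticks the 6 fits that leave out 1 library. The ticks cross 0 for 5 genes on the left (Lrat, Des, Pdgfra, Pdgfrb, Tgfb1) and for 3 of the 8 tested on the right (Tgfb1, Acta2, Tagln).

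Levels relative to Pdgfrb in the same library do not depend on a factor per library. In the Miz1(POZ) set the ratio of Lrat to Pdgfrb was 1.41, 1.13 and 1.32 in floxed and 0.914, 0.965 and 0.788 in knockout libraries, and that of Des to Pdgfrb was 0.306, 0.298 and 0.313 against 0.364, 0.341 and 0.331. Both ratios separated the groups, but Lrat and Des alone already did so and Pdgfrb was nearly level, so the ratios largely restate this. The ratio of Acta2 to Pdgfrb ran from 0.0954 in knockout replicate 2 to 0.948 in knockout replicate 3, with the floxed libraries between them at 0.287 to 0.456. In the Miz1 set, where the ratio is of read counts and not per length, Acta2 to Pdgfrb was 0.381, 0.0747 and 0.155 in floxed and 0.274, 0.194 and 0.283 in knockout libraries. Knockout replicate 1, the highest library for both genes, was not the highest for their ratio. Lrat to Pdgfrb was 0.960, 0.870 and 1.20 against 0.770, 1.02 and 0.758, and these groups overlapped.

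**Figure D5:**
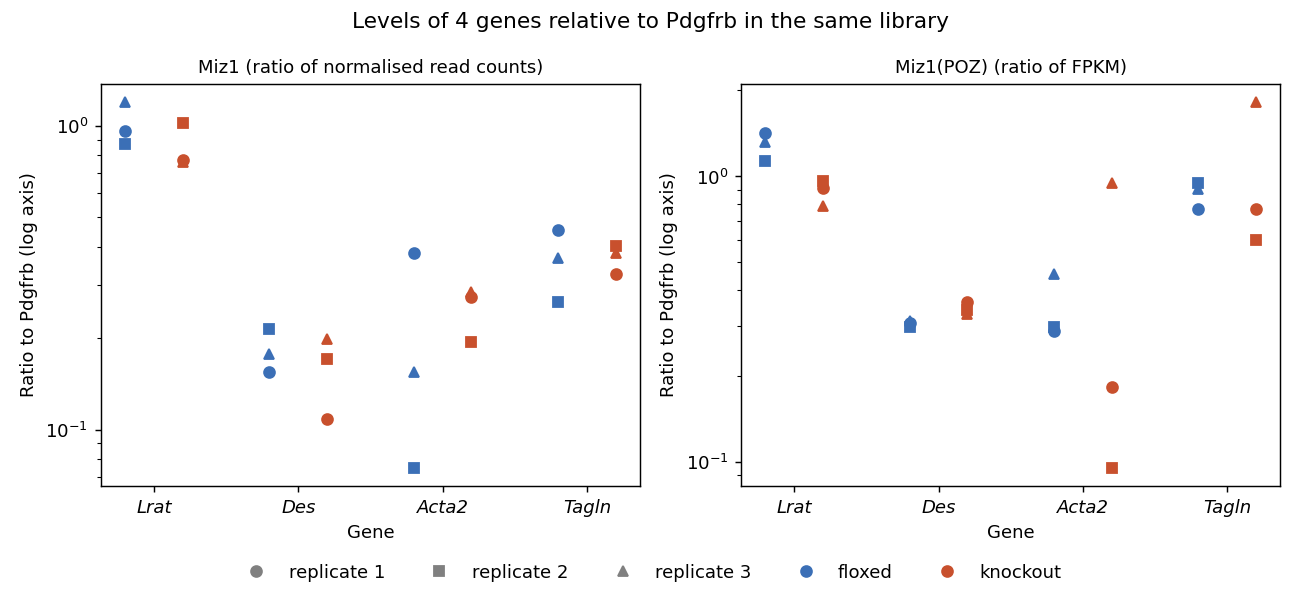
Ratio of Lrat, Des, Acta2 and Tagln to Pdgfrb in each library (log axes with their own ranges), with blue for floxed, orange for knockout and marker shapes for replicate numbers. In the Miz1(POZ) set on the right the groups part for Lrat (0.788 to 0.965 against 1.13 to 1.41) and Des, and the Acta2 ratio of knockout replicate 3 stands at 0.948.

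The lists around the members gave 0 genes past the limma threshold in the Miz1(POZ) set. All genes tested there had a median of 0.029, with 55.7% above 0. Contractile genes had 4 of 10 tested above 0 (median -0.19), with Myl9 at 0.12 ± 0.29, the caldesmon gene Cald1 at -0.23 ± 0.15 and Tpm1 at -0.36 ± 0.25. Collagens and activated fibroblast genes had 1 of 7 above 0 (median -0.14; Col1a1 -0.49 ± 0.35, Col1a2 -0.28 ± 0.20, Col3a1 -0.09 ± 0.29). Like Acta2, Col1a1 was low in knockout replicates 1 and 2 (6.23 and 4.68 FPKM) and not in replicate 3 (13.99), against 9.25 to 13.84 in floxed libraries. Quiescence markers had 4 of 7 above 0 (median 0.039), with Reln at -0.15 ± 0.15, Hgf at 0.25 ± 0.24 and Colec11 at 0.20 ± 0.27. Of the 2 PDGF ligands tested, Pdgfa had -0.03 ± 0.26 and Pdgfc 0.28 ± 0.16.

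TGF-beta ligands, receptors and SMADs had 7 of 17 above 0 (median -0.070), with Tgfbr1 at 0.05 ± 0.11, Tgfbr2 at -0.45 ± 0.30 and Tgfbr3 at -0.07 ± 0.12, and response genes had 5 of 6 (median 0.12; Ctgf -0.12 ± 0.42, Tgfbi 0.14 ± 0.15). Lysyl oxidase relatives and collagen maturation genes had 9 of 13 above 0 (median 0.16; Loxl2 -0.14 ± 0.21, Loxl4 0.42 ± 0.20, Plod1 -0.05 ± 0.15). Metalloproteinases and inhibitors had 2 of 6 (median -0.043; Timp2 -0.08 ± 0.24, Timp3 -0.55 ± 0.24, Mmp2 -0.32 ± 0.21). Of the matricellular genes tested, Sparc had -0.18 ± 0.29, Spp1 0.05 ± 0.46 and Cyr61 0.51 ± 0.12, 2 of 3 above 0. SRF, MRTF and YAP factors had 2 of 6 (median -0.048; Srf 0.08 ± 0.13, Mkl1 -0.06 ± 0.16, Mkl2 -0.10 ± 0.15).

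Markers of other cells stood as follows beside the high Acta2 of Miz1(POZ) knockout replicate 3. Smooth muscle and pericyte markers summed to 28.3 FPKM there, against 28.2 to 33.7 in floxed and 38.0 and 42.5 in the other knockout libraries, and the smooth muscle myosin Myh11 was at 0.90 against 0.69 to 1.22. Portal fibroblast markers summed to 18.2 to 30.4 in floxed and 23.9 to 41.1 in knockout tumours, and endothelial markers to 96.0 to 116 and 79.2 to 106. Of the 9 endothelial markers, 5 were highest in knockout replicate 3, as were 16.6% of all genes tested. Macrophage markers summed to 79.4 to 132 and 76.0 to 134 and cholangiocyte markers to 4.54 to 7.49 and 3.06 to 4.94. Mesothelial markers were at sums of 0.83 to 3.14 throughout, and skeletal muscle markers, which matter beside Des because that muscle also expresses it, summed to 0.12 to 0.55 in floxed and 0.25 to 0.41 in knockout tumours. Of these 6, Ckm, Acta1 and Mb were listed at 0 in all libraries, and Myh1 at 0 in all except knockout replicate 3 (0.01). Tnnt3 was listed at 0 without Cre and, in knockout replicates 1 to 3, at 0.24, 0.10 and 0, the order of Des among the knockout libraries. Mylpf did not follow Des, at 0.43, 0.12 and 0.55 in floxed and 0.17, 0.28 and 0.24 in knockout libraries. Hepatocyte markers summed to 55394 to 83834 in floxed and 41761 to 73453 in knockout libraries, with 4 of 8 above 0 (median log2 fold change 0.23). The part of these markers in the members' values was not tested.

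The genes nearest to Acta2 differed between the sets. Nearness was the root mean square distance of log2(value + 1), centred on the mean over 6 libraries, among genes whose SD was at least 0.5 times that of the target gene, and it is a description of 6 points. In the Miz1 set the nearest of 8703 genes was Myl9 (0.128), a contractile light chain, followed by the Fc receptor gene Fcgr1 (0.134), the chemokine gene Cxcl10 (0.142), Sh2d1b1 (0.159) and the hexokinase gene Hk2 (0.163). Those of the Miz1(POZ) set were Hsd17b13 (0.126), Zpr1 (0.174), Mycl (0.179), Terc (0.189) and Esm1 (0.193) among 3015 genes, and Tagln was at rank 8 (0.209). In the Miz1 set Tagln was not ranked against Acta2, because its SD was under 0.5 times that of Acta2. Nearest to Pdgfrb in the Miz1 set were Mb21d1 (0.0453), Nlrp1c-ps (0.0863), Gabra3 (0.0893), Epha3 (0.0904) and Lbh (0.103). Pdgfrb had in the Miz1(POZ) set an SD of only 0.0557, and the nearest genes were as level (Khsrp, Tmub2, Pcnxl3, Slk and Tmem55b, at 0.0125 to 0.0249).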

How the data were processed

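The submitters' processing notes name build mm10 and, with no role given, DESeq2 1.16.1, RSEM 1.1.17, the aligner Bowtie2 2.2.6, edgeR 3.18.1, bcl2fastq 2.19.0 and the trimmer Trimmomatic 0.36. The deposited Miz1 signal holds scaled reads, with a single factor for each library. In the 5 columns whose read numbers were used, at least 99.9954% of values above 0 were whole multiples of 1 read (tolerance 0.01 reads). Floxed replicate 3 also reached 99.9954%, the same share as knockout replicate 3, whose reads were used. No read numbers were taken from floxed replicate 3 and the count fits left it out. It was set aside by name and not by a limit on this share. Entries that name no gene held 38.0% to 50.8% of column sums and were left out. The deposited Miz1(POZ) values were taken as FPKM from their range, since the sources used here do not name the unit, and RPKM cannot be told apart.

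Genes with a mean of at least 1 were tested within each table on log2(value + 1), using a trended eBayes fit of limma 3.58.1 in R 4.3.3. Adjustment was by Benjamini-Hochberg over all genes, with a threshold of 0.05. edgeR 4.0.16 and DESeq2 1.42.0 were run on the recovered reads of 5 libraries as alternatives. Fold changes on this scale understate changes of low genes. The tables were normalised separately, so no test was made between alleles. The method was tested on simulated data with 200 changed genes.

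Members and lists were chosen with earlier results of these data known. Named genes are the members, the first 3 measured genes of each list in its fixed order, the 5 nearest to Acta2 and to Pdgfrb, and Zbtb17, except that 1 gene of the TGF-beta response list is not reported here; other markers, Col1a1 by library and Cyp2e1 were singled out after their values were seen. Counting error only is covered by any read number. Replicate numbers come from the titles. For correlations across genes, the mean of each gene over its group was first subtracted, so they compare deviations and not levels. In the Miz1 set they were 0.489, 0.339 and 0.118 for same-numbered libraries, and pairs are shown for this reason. Floxed replicate 2 also had a correlation of 0.282 with knockout replicate 3, above that of pair 3. The titles give numbers only and do not state a pairing. Figures were drawn with matplotlib 3.10.9.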

Additional observations from a re-analysis of the deposited data

How the results depend on the processing

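For the 10 members, every call was the same (not passed) under another pseudocount (0.1), filters, quantile, column-sum and median-ratio scaling, robust moderation, the replicate block and each left-out library, and directions changed only when libraries were left out. The single-library fits gave Miz1 log2 fold changes of -0.24 to 0.35 for Lrat, -0.11 to 0.32 for Des, -0.33 to 0.55 for Pdgfra, -0.055 to 0.57 for Pdgfrb and -0.020 to 0.37 for Tgfb1. Without both libraries of replicate 1, chosen after seeing the data, Lrat was at -0.38, Des at -0.25, Pdgfra at -0.76 and Pdgfrb at -0.17. In the Miz1(POZ) set they gave -0.16 to 0.054 for Tgfb1, -0.54 to 0.31 for Acta2 and -0.20 to 0.42 for Tagln. Over all genes, limma with the replicate block called 0 in both sets (1150 and 1076 at an unadjusted p under 0.05). In the Miz1(POZ) set, the deviations of same-numbered libraries from their group means had correlations of -0.093, 0.230 and 0.175 for replicates 1, 2 and 3. A pairing by number was thus not clear. The number called was 0 to 4 with 1 Miz1(POZ) library left out, namely 2 without floxed replicate 2 (Mir3473g, Eif3j1) and 4 without floxed replicate 3 (Scara5, Reep5, Mup16, Gm13152). On the reads of 5 Miz1 libraries edgeR called 0 genes (195 unadjusted) and DESeq2 called 5 (Ddit4, Ighg2c, Igkv10-96 and the loci XLOC_041715 and XLOC_089650; 321 unadjusted), none a member. Lox and Timp1 had no value in the Miz1(POZ) set except without the filter, and a filter at 5 left 1 of its members. Timp1 rested in the Miz1 set on as few as 3 reads in a library, and the depth of the Miz1(POZ) set is unknown.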
